A study of Mus musculus with 45 samples.

Results

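Gene expression was compared between subcutaneous scaffolds taken from mice with 4T1 tumors and scaffolds taken from mice with 67NR tumors. The comparison used 6 of the 45 RNA libraries of the series, 3 per group, and covered every gene symbol with more than 10 counts over those 6 libraries, which were 19515 of 55367 symbols. The scaffolds were porous discs of polycaprolactone, a slowly degrading polyester, placed under the skin of the upper back of female Balb/c mice. Tumor cells were injected into the mammary fat pad 2 weeks later, and scaffolds, lungs, spleens and primary tumors were taken on day 14 after injection. Scaffolds of healthy mice without tumor cells (Control) and of mice with 4T07 tumors, 3 of each, served to estimate the spread and as reference levels. All groups shared the strain, the sex, the implant and the day of collection, and they differed in the injected line. Whole cages were assigned at random to lines, and the labels do not name the cage, so cage and line cannot be told apart. 67NR and 4T07 cells came from one supplier and 4T1 cells from another. 67NR, 4T07 and 4T1 are sister lines from a single spontaneous mouse mammary tumor, so each group rests on a single line. 67NR forms primary tumors and is described as nonmetastatic, while 4T1 spreads to lung and other organs. A bulk scaffold library mixes all cells in the implant, so more cells of a type and more RNA per cell cannot be told apart.

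An implanted polymer sets off a foreign body response, in which neutrophils arrive first, monocytes become macrophages and fused giant cells at the polymer surface, and fibroblasts and vessels fill the pores. Some mammary tumors, 4T1 among them, release colony-stimulating factors that drive granulocyte production in bone marrow and spleen, and immature granulocytes then circulate. Granule proteins such as myeloperoxidase and elastase are transcribed early in that maturation, mainly in the marrow, while S100a8, S100a9 and Mmp9 belong to later stages.

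The 6 libraries held 5362342 to 6232024 counts, so that a floor of 3 counts corresponded to 0.481 to 0.559 CPM (counts per 1e6 of the library total). Mitochondrial transcripts took 6.51% to 9.03% of counts. Spearman correlations over genes were 0.957 to 0.979 between libraries of the same group and 0.942 to 0.973 between groups. The defining markers of a scaffold were present in every library. Gpnmb, a glycoprotein of lipid-laden macrophages and giant cells, was at 5572, 6051 and 6354 CPM in 67NR scaffolds and 8364, 8176 and 8765 CPM in 4T1 scaffolds. Col1a1, which encodes fibrillar collagen, was at 2780 to 3827 CPM over the 6 libraries.

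Some libraries carried transcripts that are foreign to a scaffold, and these values bear on the results that follow. Rhox5, a homeobox gene that the 67NR tumors expressed at 653 to 890 CPM, was at 0.185, 0.321 and 0.164 CPM in 67NR scaffolds. In 4T1 scaffolds Rhox5 was at 13.7, 1.68 and 1.44 CPM, although 4T1 tumors had only 1.02 to 2.56 CPM, and it was at 0 in Control scaffolds. Among 4T07 libraries Rhox5 reached 47.5 CPM in scaffolds and 87.8 CPM in spleens. Pnlip, the lipase of the exocrine pancreas, was at 0 in the 3 67NR scaffolds and at 4.41, 1.68 and 0.718 CPM in the 4T1 scaffolds. Sftpc, surfactant protein C of the lung, went the other way, at 127, 49.3 and 28.5 CPM in 67NR scaffolds and 33.0, 14.4 and 7.90 CPM in 4T1 scaffolds. Those Sftpc levels were 0.0866% to 1.24% of the mean level in the lungs of the same tumor group. 4T1 scaffold 1 was the highest 4T1 scaffold for Rhox5, Pnlip, Sftpc and Hbb-bs, the adult beta globin of red cells. 67NR scaffold 1 was likewise the highest 67NR scaffold for Sftpc and Hbb-bs. Where the foreign transcripts came from was not tested.

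**Figure D1:**
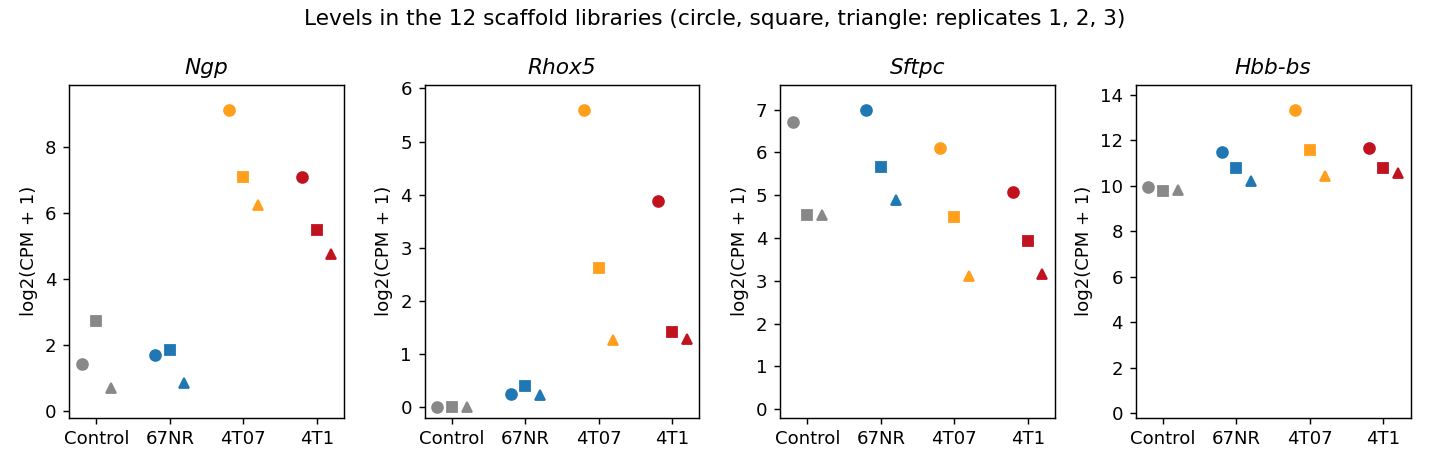
Levels of Ngp (neutrophil granules), Rhox5 (expressed in 67NR tumors), Sftpc (lung) and Hbb-bs (red cells) as log2(CPM + 1), 1 panel per gene and 1 point per library in Control, 67NR, 4T07 and 4T1 scaffolds. Circles, squares and triangles are replicates 1, 2 and 3; the highest 4T1 scaffold in all 4 panels is replicate 1, with 136 CPM of Ngp and 13.7 CPM of Rhox5.

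Few genes passed the threshold between 4T1 and 67NR scaffolds. A gene was called when the edgeR quasi-likelihood test gave an adjusted p under 0.10 and the fold change was over 2. The study used these thresholds for scaffolds, but with DESeq2. Of 19515 genes 4 were called, or 0.0205%, of which 1 (0.00512%) was higher and 3 (0.0154%) were lower in 4T1 scaffolds. DESeq2 on the same libraries called 48 genes (0.246%), 39 higher (0.2%) and 9 lower (0.0461%), and these included all 4. Without adjustment 2106 genes (10.8%) had p under 0.05, 1150 higher (5.89%) and 956 lower (4.9%). Every 4T1 scaffold was above, or every one below, all 67NR scaffolds in 3286 genes (16.8%), 1872 higher (9.59%) and 1414 lower (7.25%) in 4T1. The median log2 fold change over all genes was -0.0089. For 3 libraries per group the smallest p that an exact permutation test can give is 0.1, so the tests below rest on the spread shared across genes. Leaving out any 67NR scaffold or 4T1 scaffold 1 left 0 calls by edgeR, with 4.13% to 7.07% of genes higher and 3.4% to 5.93% lower at an unadjusted p under 0.05. Without 4T1 scaffold 2 there were 3 calls, Igha among them, and without 4T1 scaffold 3 there were 7, Slc39a2 among them. Ifitm1 and Spon2 were called in none of the 6 fits that left out 1 scaffold. Because so few genes were called, the other genes are given as values, with the count past the unadjusted p read against 5.89% and 4.9%.

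Ifitm1, an interferon-inducible membrane protein that restricts virus entry and is also abundant in some progenitor and tumor cells, was the gene that rose. It was at 14.8, 21.2 and 16.7 CPM in 67NR scaffolds and 51.8, 93.8 and 57.1 CPM in 4T1 scaffolds. Every 4T1 scaffold was above every 67NR, Control (8.66 to 22.8 CPM) and 4T07 scaffold (18.1 to 29.1 CPM). The log2 fold change was 1.88 (SE 0.31, adjusted p = 0.0984 by edgeR). Its relatives did not follow it as a family. Ifitm3 was at 442, 268 and 259 CPM in 67NR against 249, 183 and 234 CPM in 4T1 scaffolds (log2 fold change -0.58, adjusted p = 0.447). Ifitm6 was at 8.87, 8.83 and 9.50 CPM against 49.0, 17.0 and 21.7 CPM (1.66, adjusted p = 0.352).

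Slc39a2, a zinc importer of the cell surface, fell. It was at 76.7, 56.6 and 67.6 CPM in 67NR scaffolds and at 30.7, 26.3 and 31.4 CPM in 4T1 scaffolds, with a log2 fold change of -1.22 (SE 0.19, adjusted p = 0.0984 by edgeR). Control scaffolds lay at 52.6 to 67.1 CPM, with the 67NR group, and 4T07 scaffolds at 21.4 to 29.0 CPM, with the 4T1 group. Spon2, a secreted matrix protein that acts as a pattern recognition molecule, also fell, from 19.6, 19.7 and 34.9 CPM to 11.4, 7.46 and 6.64 CPM (log2 fold change -1.57, SE 0.25, adjusted p = 0.0984). For Spon2 the 4T1 group alone stood apart, since Control (21.9 to 25.5 CPM) and 4T07 scaffolds (21.4 to 27.6 CPM) lay within the range of 67NR scaffolds.

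Igha, the constant region of the IgA heavy chain made by plasma cells, had the largest fall of the called genes. It was at 21.2, 32.9 and 26.7 CPM in 67NR scaffolds and 7.35, 10.4 and 3.23 CPM in 4T1 scaffolds (log2 fold change -2.00, SE 0.33, adjusted p = 0.0984 by edgeR). Here the 67NR group was the one apart: Control scaffolds had 6.14 to 7.97 CPM and 4T07 scaffolds 5.70 to 12.8 CPM. Of the 9 plasma cell genes tested 4 were above and 5 below 0, 1 was higher and 2 were lower at an unadjusted p under 0.05, and Igha was the only one called. Sdc1, a surface proteoglycan that marks plasma cells and epithelia, was the one higher, at 68.5, 92.4 and 103 against 112, 145 and 125 CPM (log2 fold change 0.48, adjusted p = 0.38 by edgeR). Jchain, which joins IgA and IgM chains, was at 48.6, 32.1 and 25.1 against 22.0, 16.2 and 6.28 CPM (-1.29, adjusted p = 0.447). Ighm, the IgM heavy chain, overlapped between the groups, with 53.7 to 114 CPM in 67NR and 34.1 to 133 CPM in 4T1 scaffolds, and Igkc, the kappa light chain, likewise with 33.7 to 91.6 and 16.2 to 93.9 CPM.

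**Figure D2:**
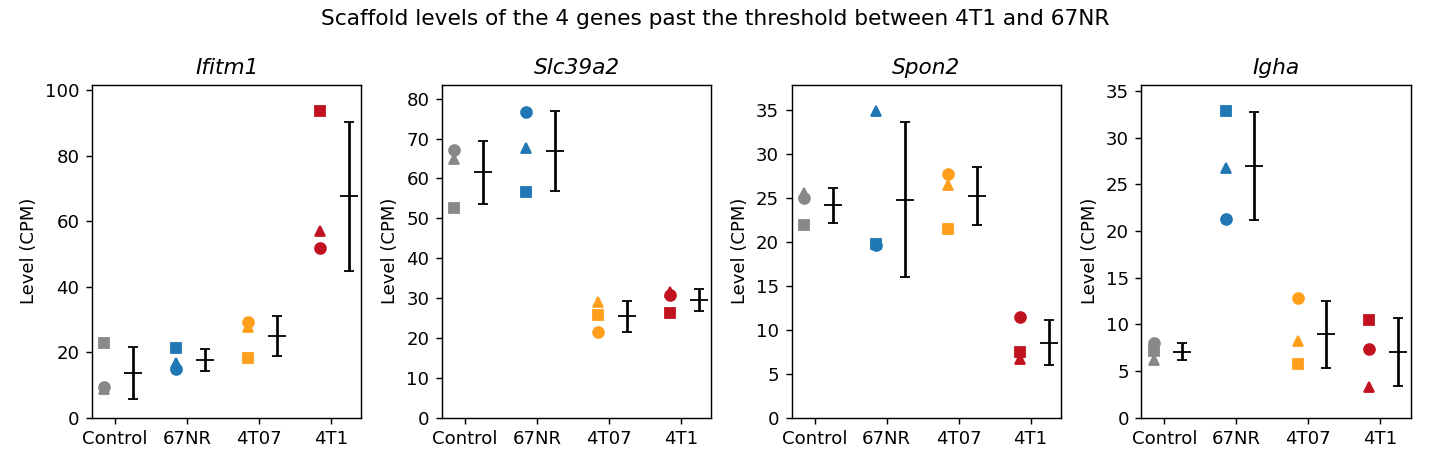
Levels in CPM of the 4 genes past the threshold, with 1 point per library (circle, square and triangle for replicates 1, 2 and 3) and the mean with its SD (bar, n = 3) in Control, 67NR, 4T07 and 4T1 scaffolds. Ifitm1 and Spon2 stand apart in the 4T1 group, Slc39a2 is low in 4T07 and 4T1 scaffolds, and Igha is high in 67NR scaffolds, at 21.2 to 32.9 CPM.

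Next by unadjusted p among genes with a mean of at least 5 CPM came genes that did not pass the threshold by edgeR. Below 0 in 4T1 minus 67NR were Sema3c, a secreted guidance protein, at 53.9, 38.5 and 54.0 against 22.4, 15.1 and 17.8 CPM (log2 fold change -1.44, SE 0.26, adjusted p = 0.12 by edgeR), and Mmp13, an interstitial collagenase, at 254, 201 and 274 against 120, 118 and 154 CPM (-0.93, SE 0.18, adjusted p = 0.146). Scara5, a ferritin receptor of stromal cells, was at 45.6, 31.9 and 36.0 against 20.7, 14.0 and 16.3 CPM (-1.19, adjusted p = 0.146). The groups did not overlap for any of the 3. Cap1, an actin regulator, Rian, a maternally expressed long noncoding RNA, Ifi27l2a, an interferon-induced gene, and Gm20568 were at log2 fold changes of -0.82, -1.15, -0.84 and -1.18. DESeq2 called Sema3c, Scara5, Rian and Gm20568 lower.

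On the other side, besides the granule and clock genes described below, lay Slc25a13, a mitochondrial aspartate-glutamate carrier, at 46.2, 52.3 and 50.0 against 92.7, 160 and 78.8 CPM (log2 fold change 1.10, SE 0.21, adjusted p = 0.134 by edgeR). Dok3, an adaptor that restrains signalling in myeloid and B cells, was at 31.2, 34.2 and 37.3 against 63.5, 74.0 and 54.0 CPM (0.85, adjusted p = 0.134). H2az1, a histone variant, Tbcc, a tubulin folding cofactor, Fam102a and Gm9774 were at log2 fold changes of 0.78, 0.73, 0.80 and 1.13. For each of these 6 genes all 4T1 scaffolds were above all 67NR scaffolds. The 4T07 scaffolds were also above every 67NR scaffold for all 6. DESeq2 called Slc25a13 and Gm9774 higher.

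Genes of immature neutrophil granules had the highest median of the 45 lists examined. All 12 were tested, all 12 had a log2 fold change above 0 and 11 had an unadjusted p under 0.05, against 5.89% of all genes. In 10 of the 12 every 4T1 scaffold was above every 67NR scaffold, against 9.59% of all genes. The median log2 fold change was 4.46, or 3.53 with the 3 genes that no 67NR library held above 3 counts set to that floor. None was called by edgeR, and 7 were called by DESeq2. Ctsg, Prtn3, Fcnb, Ms4a3, Elane and Cd177 had at most 10 counts over the 67NR scaffolds and passed the count filter only through the 4T1 group, so these counts and medians do not support a difference by themselves. Among the other 6 the log2 fold changes ran from 1.24 to 5.14. The summed level of the 12 was 13.7, 13.6 and 18.2 CPM in 67NR scaffolds, 380, 144 and 84.2 CPM in 4T1 scaffolds and 10.1 to 19.3 CPM in Control scaffolds. In 4T07 scaffolds the sum was 193 to 1567 CPM.

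Ngp, the neutrophilic granule protein of secondary granules, was the most abundant of them. It was at 2.22, 2.57 and 0.819 CPM in 67NR scaffolds and at 136, 43.6 and 26.2 CPM in 4T1 scaffolds (log2 fold change 5.14, SE 0.90, adjusted p = 0.12 by edgeR). Camp, the precursor of the cathelicidin antimicrobial peptide, was at 2.03, 0.802 and 0.328 against 45.4, 18.3 and 13.6 CPM (4.59, SE 0.96, adjusted p = 0.162). Mpo, the myeloperoxidase of primary granules, was at 0.924, 1.44 and 0.491 against 50.4, 9.51 and 7.18 CPM (4.49, SE 1.04, adjusted p = 0.198). In each of these the lowest 4T1 scaffold was several times above the highest 67NR scaffold, and 4T1 scaffold 1 was the highest library.

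The iron-binding proteins of the secondary granules were next. Ltf, lactoferrin, was at 0.739, 0.481 and 3.11 against 28.2, 10.8 and 9.16 CPM (log2 fold change 3.41, SE 0.86, adjusted p = 0.222 by edgeR). Lcn2, lipocalin, which binds bacterial siderophores, was at 4.43, 6.10 and 9.66 against 42.3, 28.2 and 15.3 CPM (2.03, SE 0.54, adjusted p = 0.239). Lcn2 was the granule gene with the highest level in 67NR scaffolds. Among the serine proteases of primary granules, Ctsg, cathepsin G, was at 0.185, 0.963 and 0.164 against 17.1, 10.4 and 3.95 CPM (4.44, adjusted p = 0.162). Elane, neutrophil elastase, had 1 count over the 67NR scaffolds and 110 over the 4T1 scaffolds, a depth-corrected ratio of 114 (95% counting interval 20.1 to 4562). Ms4a3, a marker of granulocyte and monocyte progenitors, had 2 counts against 75, a ratio of 39.0 (10.4 to 328). Cebpe, the transcription factor of the granule program, did not separate the groups, at a log2 fold change of 1.24, and Cd177, a neutrophil surface protein, overlapped.

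These differences moved with other values in the libraries. Within the 4T1 scaffolds Ngp, Rhox5 and Pnlip had the same order. The Ngp levels of the 4T1 scaffolds were 8.18%, 2.63% and 1.58% of the mean in 4T1 spleens and 30.5%, 9.84% and 5.91% of the mean in 4T1 lungs. Those of the 67NR scaffolds were 3.74%, 4.33% and 1.38% of the mean in 67NR spleens. Against the mean in 67NR lungs they were 109%, 127% and 40.4%. The shares of the spleen level thus overlapped between the groups. The shares of the lung level were higher in 67NR scaffolds, but there both levels were low. Ngp had 11, 12 and 14 counts in 67NR lungs (mean 2.03 CPM) and 12, 16 and 5 counts in 67NR scaffolds. Its mean in 4T1 lungs was 444 CPM, so the lung shares do not compare the groups. The erythroid list, a sign of blood and spleen cells, had no member with p under 0.05, and its summed level was 2458 to 6524 CPM in 67NR and 3215 to 9446 CPM in 4T1 scaffolds. The part that blood or other tissues played in the granule levels was not tested. Without 4T1 scaffold 1 the median of the 12 was 3.16, 10 had p under 0.05 and edgeR called none. Without the 4T07 scaffolds in the model 8 of the 12 were called, against 18 of all 19515 genes. Ctsg, Prtn3 and Ms4a3, which passed the count filter only through the 4T1 group, were among the 8. That count therefore does not support a difference by itself. Without both the 4T07 scaffolds and 4T1 scaffold 1, 3 of the 12 were called, against 10 of 18952 genes.

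The promoter windows of 3 granule genes are printed because granule genes are known targets of C/EBP transcription factors and their levels moved together. The windows are RefSeq sequence of build GRCm38.p6 from 250 bases before to 50 after the start of the gene, 5′ to 3′, with matches to TTGCNNAA, part of the C/EBP motif, on either strand in capitals.
Ngp, chr9:110419558-110419857, plus strand: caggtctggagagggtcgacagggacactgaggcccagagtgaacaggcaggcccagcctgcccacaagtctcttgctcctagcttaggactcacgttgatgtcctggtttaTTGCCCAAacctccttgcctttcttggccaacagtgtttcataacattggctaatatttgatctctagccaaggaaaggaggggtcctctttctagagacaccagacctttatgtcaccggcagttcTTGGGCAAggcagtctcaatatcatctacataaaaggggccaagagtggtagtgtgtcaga
Ltf, chr9:111019042-111019341, plus strand: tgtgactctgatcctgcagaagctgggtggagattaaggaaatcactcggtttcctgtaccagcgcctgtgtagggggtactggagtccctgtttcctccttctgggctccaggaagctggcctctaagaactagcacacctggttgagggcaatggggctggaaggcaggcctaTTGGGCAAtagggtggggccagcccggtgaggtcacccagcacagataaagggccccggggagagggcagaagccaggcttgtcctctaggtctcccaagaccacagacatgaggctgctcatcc
Lcn2, chr2:32387690-32387989, minus strand: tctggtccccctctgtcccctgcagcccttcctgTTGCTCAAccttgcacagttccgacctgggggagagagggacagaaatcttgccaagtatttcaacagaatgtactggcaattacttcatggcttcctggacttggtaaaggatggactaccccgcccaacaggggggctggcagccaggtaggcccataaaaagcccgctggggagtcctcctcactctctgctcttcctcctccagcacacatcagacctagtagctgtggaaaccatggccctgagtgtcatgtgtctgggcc
A window was found for 11 of the 12 granule genes, and 5 of the 11 held TTGCNNAA, against 12.2% of 27025 genes with a window and 10.8% of all 32851 windows. Ngp held 2 matches, at -138 and -11 from the start, Ltf 1 at -75 and Lcn2 1 at -216. A match shows the letters only, and no match was read as the lack of a factor.

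Markers of mature neutrophils differed less. Of 12 tested, 9 were above 0, with a median log2 fold change of 0.71, 4 higher and 1 lower at an unadjusted p under 0.05 and none called. Their summed level was 1824, 2075 and 1925 CPM in 67NR scaffolds and 3825, 4266 and 3085 CPM in 4T1 scaffolds, while Control scaffolds ranged from 943 to 3033 CPM. S100a8, a calprotectin subunit, was at 564, 562 and 494 against 1619, 1086 and 1027 CPM (1.16, SE 0.55, adjusted p = 0.467 by edgeR). Mmp9, gelatinase B, was at 289, 534 and 485 against 681, 1432 and 769 CPM (1.08, SE 0.31, adjusted p = 0.25) and Mmp8, neutrophil collagenase, at 15.7, 12.0 and 16.5 against 34.4, 34.3 and 28.5 CPM (1.09, adjusted p = 0.222). DESeq2 called Mmp8 and Mmp9. Il1f9, an interleukin-36 cytokine, lay the other way, at 64.5, 78.8 and 74.8 against 22.5, 33.6 and 27.5 CPM (-1.43, adjusted p = 0.439), and its Control scaffolds spread from 7.24 to 111 CPM.

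Eosinophil genes did not move as a group, and edgeR called none of them. DESeq2 called 1, Prg2, as higher, and so did edgeR without the 4T07 scaffolds in the model. Prg2, the major basic protein, was at 1.29, 0.642 and 0.819 against 85.9, 30.4 and 9.70 CPM (log2 fold change 5.46, SE 1.02, adjusted p = 0.134 by edgeR). Epx, eosinophil peroxidase, had 1 count against 71, a ratio of 73.9 (95% counting interval 12.8 to 2959). Ear1, an eosinophil ribonuclease, had 2 counts against 46, a ratio of 23.9 (6.26 to 204), and Ear6 had none in 67NR scaffolds, which makes it at least 3.98-fold higher against the floor of 3 counts per library. Epx, Ear1 and Ear6 passed the count filter only through the 4T1 group. Ear2, another of the ribonucleases, lay the other way, at 3.70, 4.97 and 4.42 against 2.45, 2.24 and 1.80 CPM. The receptor Ccr3 was at 8.52 to 11.6 and 7.18 to 9.14 CPM, and the lectin Siglecf at 4.25 to 6.10 and 4.10 to 12.1 CPM. Over the 10 genes the median was 0.59, with 5 higher and 1 lower at an unadjusted p under 0.05, and without 4T1 scaffold 1 it was 0.35 over 9 genes, with 3 higher.

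**Figure D3:**
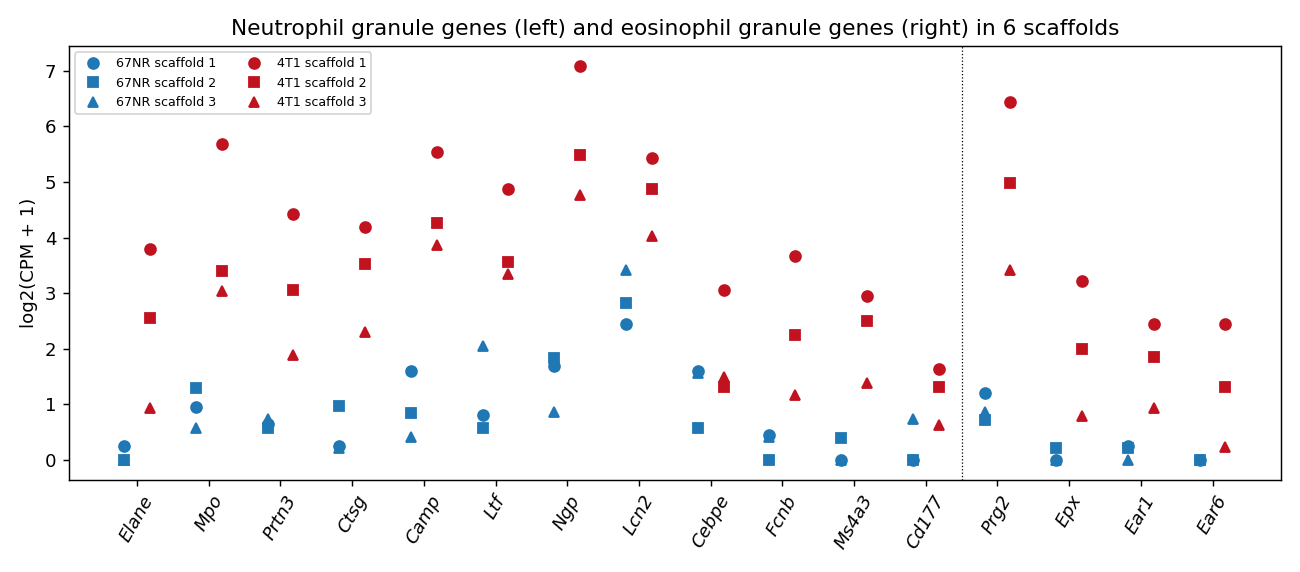
Levels as log2(CPM + 1) of 12 neutrophil granule genes (left of the dotted line) and 4 eosinophil granule genes (right), with 1 point per scaffold, blue for 67NR and red for 4T1, shapes marking replicates. The red points lie above all blue points for 10 of the 12 neutrophil genes, against 9.59% of all genes, the exceptions being Cebpe and Cd177. Ctsg, Prtn3, Fcnb, Ms4a3, Elane, Cd177, Epx, Ear1 and Ear6 passed the count filter only through the 4T1 group.

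After the granule genes, the circadian clock had the most members at an unadjusted p under 0.05 of any list. Clock proteins drive daily rhythms of transcription in most cells. Of 18 tested, 14 were above 0 and 10 had p under 0.05, all higher, with a median log2 fold change of 0.57 and none called. In 8 genes every 4T1 scaffold was above every 67NR scaffold, against 9.59% of all genes. In 1 gene every 4T1 scaffold was below, against 7.25%. Per3, a period repressor of the clock, was at 15.3, 15.9 and 14.1 against 26.6, 33.6 and 27.7 CPM (0.91, SE 0.17, adjusted p = 0.127 by edgeR). Cry1, a cryptochrome repressor, was at 8.13, 9.31 and 8.84 against 16.2, 16.8 and 16.9 CPM (0.88, SE 0.19, adjusted p = 0.162), and Tef, an output factor of the PAR bZIP family, at 43.2, 51.8 and 46.7 against 111, 68.4 and 97.3 CPM (0.93, SE 0.19, adjusted p = 0.158). In these 3 genes the groups did not overlap. Per2 rested largely on 4T1 scaffold 2, at 2.59, 5.30 and 2.62 against 6.69, 34.9 and 5.93 CPM. Without 4T1 scaffold 2, 6 of the 18 were higher and 2 lower at p under 0.05. The hour of tissue collection is not given in the sources used here and was not tested.

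The windows of Cry1 and Tef, from the same source, are shown for the E-box CACGTG, the element that CLOCK and ARNTL bind, in capitals.
Cry1, chr10:85185005-85185304, minus strand: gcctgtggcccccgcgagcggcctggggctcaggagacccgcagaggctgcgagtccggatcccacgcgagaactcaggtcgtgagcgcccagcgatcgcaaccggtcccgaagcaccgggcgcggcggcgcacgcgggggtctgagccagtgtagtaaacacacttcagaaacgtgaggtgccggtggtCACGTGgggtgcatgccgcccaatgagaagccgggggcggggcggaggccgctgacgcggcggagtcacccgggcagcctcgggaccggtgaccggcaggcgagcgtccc
Tef, chr15:81802423-81802722, plus strand: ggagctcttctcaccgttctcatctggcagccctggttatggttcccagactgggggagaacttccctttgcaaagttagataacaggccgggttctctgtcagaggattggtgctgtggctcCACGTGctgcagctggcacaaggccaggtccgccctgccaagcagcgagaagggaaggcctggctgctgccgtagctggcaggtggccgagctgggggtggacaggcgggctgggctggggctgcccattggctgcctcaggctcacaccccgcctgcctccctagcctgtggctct
CACGTG reads the same on both strands. It stood at -60 in Cry1 and -127 in Tef, and in 5 of the 15 clock genes with a window, against 8.09% of 27025 genes and 7.15% of windows.

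Adipocyte genes tended to be higher in 4T1 scaffolds. Of 12, 11 were above 0 and 7 had an unadjusted p under 0.05, with a median log2 fold change of 0.93, and in 3 every 4T1 scaffold was above every 67NR scaffold, against 9.59% of all genes. None was called by edgeR. Adipoq, the hormone adiponectin, was at 24.8, 35.9 and 74.8 against 82.3, 135 and 77.4 CPM (1.07, SE 0.30, adjusted p = 0.25 by edgeR), and Retn, resistin, at 4.25, 5.46 and 11.8 against 17.0, 15.1 and 20.6 CPM (1.25, SE 0.36, adjusted p = 0.25). DESeq2 called these 2. In Control scaffolds Adipoq was at 50.8 to 65.5 CPM, within the range of 67NR scaffolds. 67NR scaffold 1 was the lowest of the 6 libraries for both, and without it 2 of the 12 had p under 0.05. How much fat adhered to each implant was not tested.

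Most fibroblast markers lay below 0, none of them called, while the matrix lists showed no shared direction. Of 12 fibroblast markers 9 were below 0 (median -0.25), and Dpt, Cd34 and Pi16, genes of adventitial and progenitor fibroblasts, had p under 0.05 without being called by edgeR or DESeq2. Pi16 was at 110, 87.1 and 98.6 against 75.9, 74.4 and 62.7 CPM (-0.52, adjusted p = 0.387 by edgeR). Among 20 collagens (median 0.05) 2 had p under 0.05, both lower, and Col14a1, a fibril-associated collagen, was at 192, 208 and 184 against 139, 133 and 85.8 CPM (-0.76, adjusted p = 0.192). Of 23 matrix proteins and crosslinkers 2 were higher and 3 lower, Spon2 among the latter, with a median of -0.07. Matrix proteases and inhibitors had 3 in each direction of 22, and TGF-beta and BMP signalling 1 higher and 2 lower of 22.

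Macrophage markers had overlapping sums, at 7494 to 8196 CPM in 67NR and 7557 to 8269 CPM in 4T1 scaffolds (median -0.05, 1 higher and 1 lower of 14 at p under 0.05). Mertk, a receptor for apoptotic cells, was at 90.5, 93.2 and 97.1 against 180, 126 and 170 CPM (0.73, adjusted p = 0.308 by edgeR). Giant cell genes had 3 higher of 12, Gpnmb among them (0.45, adjusted p = 0.432), with a median of 0.18. Of 18 lipid uptake genes 2 were higher, and Apoe, an apolipoprotein of lipid-laden macrophages, was at 2497, 2304 and 2598 against 4196, 7336 and 3134 CPM (0.92, SE 0.25, adjusted p = 0.239). Alternatively activated and suppressive myeloid genes had 2 lower of 16: Mgl2, a lectin of such macrophages, was at 43.0, 32.3 and 28.0 against 25.1, 17.7 and 12.4 CPM (-0.95, adjusted p = 0.221), and Retnla was at -0.78. Monocyte markers had 2 lower of 10 and dendritic cell markers 2 lower of 12.

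Among signals between cells, 4 of 27 chemokines were lower and 1 was higher at an unadjusted p under 0.05. Ccl3, an inflammatory chemokine made by macrophages, was at 82.8, 77.2 and 93 against 41.6, 52.6 and 57.3 CPM (-0.78, adjusted p = 0.314 by edgeR). Cxcl9, an interferon-gamma-induced ligand of Cxcr3, was at 21.6, 26.0 and 22.3 against 13.9, 17.7 and 12.4 CPM (-0.72, adjusted p = 0.345), and Cxcl12, which retains cells bearing Cxcr4, was at 299, 403 and 349 against 441, 573 and 481 CPM (0.46, adjusted p = 0.372). Of 40 interferon-stimulated genes 2 were higher, Ifitm1 and Ifitm6, and 4 lower, with a median of -0.06, so that Ifitm1 was called without the rest of the list. Inflammatory cytokines and NF-kB targets had 1 higher and 2 lower of 22, and complement 2 and 2 of 20. MHC class I presentation had 3 higher of 15 and class II 2 higher of 13.

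Lymphoid lists showed little. None of 12 T cell, 10 B cell or 10 mast cell genes had an unadjusted p under 0.05, and 1 of 11 NK and cytotoxic genes did. The B cell median was -0.74, from genes with a summed level of 54.2 to 112 and 49.6 to 79.3 CPM. The same was true of 11 skeletal muscle, 8 skin and hair follicle, 8 Schwann cell and 9 erythroid genes. Endothelial lists had 1 lower of 12 (blood) and 2 higher of 6 (lymphatic), pericytes 1 lower of 10 and platelets 1 higher of 8. Angiogenesis genes had 2 higher and 3 lower of 22, hypoxia and glycolysis 1 and 3 of 26, respiratory chain 1 and 3 of 26 and iron handling 3 higher of 13. Cell cycle genes had 1 lower of 30, immediate early genes 1 higher of 20 and glucocorticoid targets 4 higher of 14. edgeR called none of the genes in these lists, and DESeq2 called Lcn2, a member of both the iron and the glucocorticoid list, and Hp, haptoglobin, of the iron list, both higher.

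**Figure D4:**
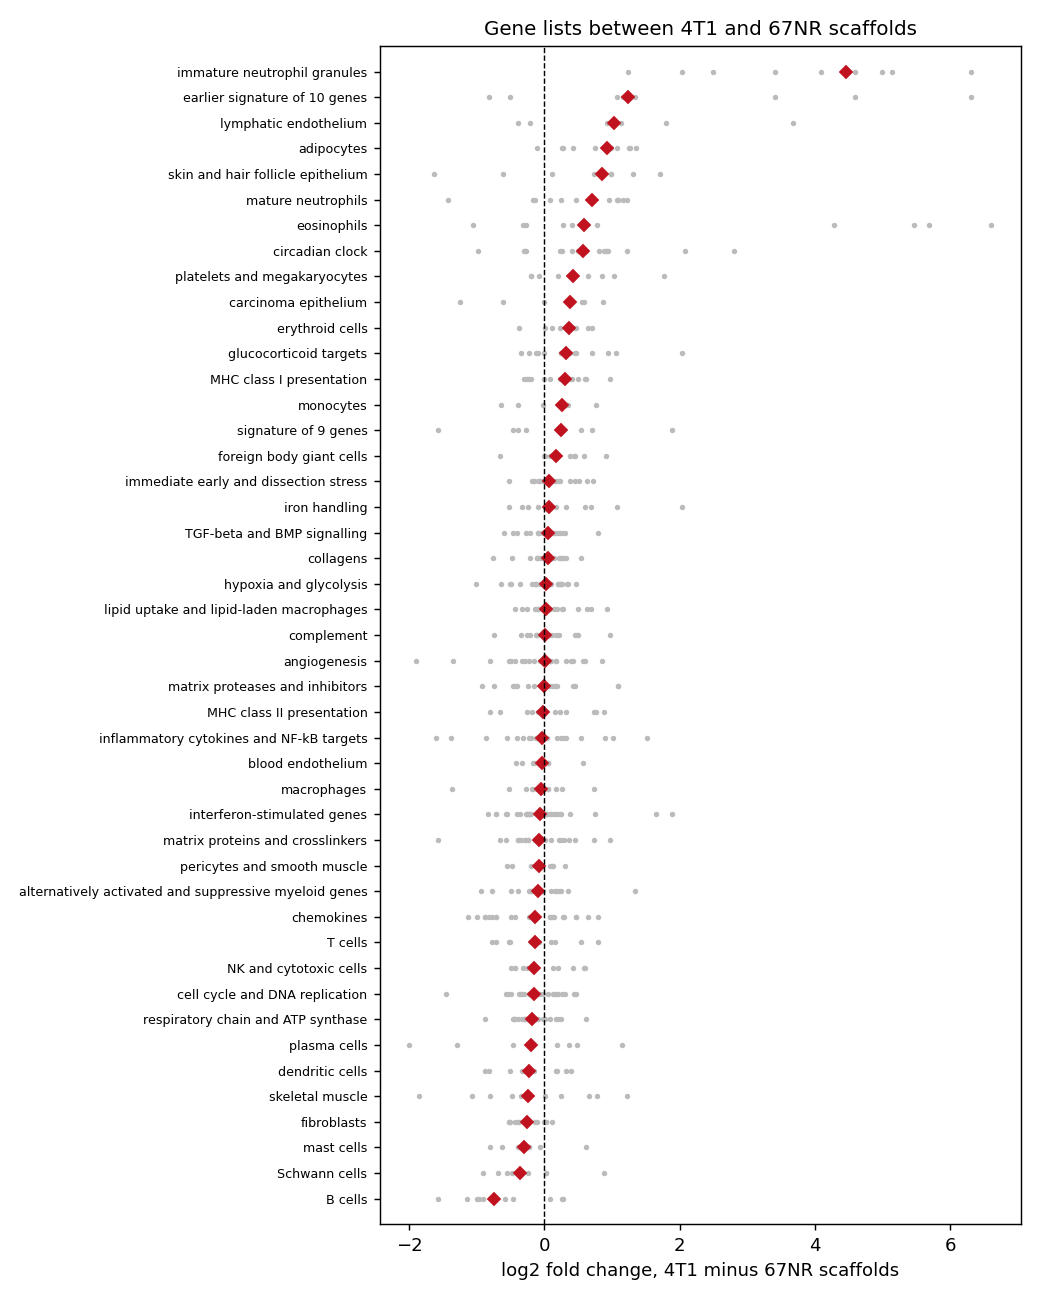
Log2 fold change, 4T1 minus 67NR scaffolds, of each tested member (grey points) and the median (red diamonds) of the 45 gene lists, 1 row per list ordered by median. The dashed line is the median of all genes. The neutrophil granule list lies furthest from it, at a median of 4.46, or 3.53 with 3 genes set to the floor. Its members Ctsg, Prtn3, Fcnb, Ms4a3, Elane and Cd177 passed the count filter only through the 4T1 group.

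The 9-gene signature of the study was chosen on these scaffolds, so its values here are no independent evidence. The paper narrowed its members by PCR and also tested it by PCR in separate mice. At the last day tested by PCR, it reports every member as significantly higher in 4T1 scaffolds than in those of the other lines. At the day used here, it reports only Slc1a3 as significant. In the present libraries Spon2, Dhx9, Pja2 and Fhl1 had negative log2 fold changes. Day and method differ from that PCR result, and the reason for the opposite direction was not tested. Ifitm1 and Spon2 were called. Dhx9, an RNA helicase, was at 161, 173 and 169 against 120, 126 and 130 CPM (-0.46, adjusted p = 0.25 by edgeR), Slc1a3, a glutamate transporter, at 10.5, 15.1 and 17.0 against 21.2, 30.0 and 20.5 CPM (0.70, adjusted p = 0.287), and Soga1 at 25.1, 21.7 and 18.0 against 33.6, 32.8 and 30.2 CPM (0.53, adjusted p = 0.27). Dusp12, Ndufs1, Pja2 and Fhl1 were at 0.28, 0.24, -0.28 and -0.39, with unadjusted p over 0.05. The earlier 10-gene signature of the group had 9 genes tested, with a median of 1.24, 4 higher and 1 lower at p under 0.05 and none called by edgeR. DESeq2 called 2, Camp and Ltf. Those higher were Camp, Ltf and Elane, described above, and Pglyrp1, a bactericidal granule protein, at 6.47, 2.57 and 2.62 against 13.6, 7.65 and 6.82 CPM (1.24, adjusted p = 0.396). Ccl22, a chemokine of dendritic cells, was the lower one, at 4.25, 2.89 and 4.09 against 1.96, 1.86 and 2.69 CPM (-0.81, adjusted p = 0.432).

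The same contrast in the other tissues of these tumor groups was much wider. By the same thresholds 1118 of 19852 genes (5.63%) were called in lungs, 4204 of 18477 (22.8%) in spleens and 4771 of 18235 (26.2%) in primary tumors. The difference between tissues was tested as an interaction at an adjusted p under 0.10. It passed in 983 of 22648 genes for scaffold against lung (4.34%), 4245 of 22062 for spleen (19.2%) and 5105 of 21837 for primary tumor (23.4%).

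Ifitm1 rose in every tissue, and by more in spleens and primary tumors than in scaffolds. It was at 46.0, 48.1 and 54.7 CPM in 67NR lungs and 487, 596 and 213 CPM in 4T1 lungs, at 32.9, 44.4 and 28.5 against 492, 317 and 359 CPM in spleens, and at 3.23, 6.15 and 1.13 against 151, 101 and 122 CPM in primary tumors. Its log2 fold changes were 3.24 (SE 0.28), 3.81 (SE 0.27) and 4.90 (SE 0.38) in that order. The scaffold change was smaller than that of the spleen by 1.94 (adjusted p = 0.0025) and of the tumor by 3.07 (adjusted p = 0.00023), while the difference from lung (-1.29) had an adjusted p of 0.12.

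Igha fell in every tissue, though in primary tumors it was near the floor, at 23, 9 and 8 counts in 67NR against 10, 2 and 0 in 4T1. The log2 fold change was -2.08 (SE 0.21) in lungs, from 47.7, 46.3 and 56.0 to 14.5, 8.05 and 10.2 CPM, -1.90 (SE 0.20) in spleens, from 159, 142 and 157 to 23.0, 31.8 and 41.1 CPM, and -2.41 (SE 0.78) in primary tumors (adjusted p = 1.5e-06, 1.2e-05 and 0.027). No interaction passed, with adjusted p from 0.82 to 0.92, which does not show that the changes were equal. Control lungs had 21.6 to 26.7 CPM of Igha and Control spleens 94.0 to 125 CPM, between the 67NR and 4T1 groups. Control scaffolds, at 6.14 to 7.97 CPM, lay with the 4T1 group instead. Spon2 fell in lungs (-1.21, adjusted p = 0.0029) and primary tumors (-1.62, adjusted p = 0.0062), and its spleen difference of -0.57 had an adjusted p of 0.11. Slc39a2 was low outside the scaffold, at 2.68 to 4.05 CPM in lungs and at most 1.02 CPM in spleens and tumors, and was called in none of them.

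Granulocyte genes rose in 4T1 lungs, spleens and primary tumors. The 12 immature granule genes were all called in lungs (median log2 fold change 6.42) and spleens (5.91), and 8 of 12 in primary tumors (3.02). Mpo had 4, 1 and 3 counts in 67NR lungs and 3, 2 and 0 in 67NR primary tumors. It passed the count filter in these tissues only through the 4T1 group. The lung and tumor counts and medians of this list therefore do not support a difference by themselves. Interaction with the scaffold passed in 1, 2 and 1 of them, against 4.34%, 19.2% and 23.4% of all genes. Of the 12 mature neutrophil markers 12, 12 and 11 were called, with medians of 4.93, 3.75 and 2.05, and the interaction passed in 11, 12 and 5. The difference between both lists was not tested. S100a8 was 5.73 log2 units lower in its scaffold change than in its lung change (adjusted p = 1.4e-05) and 3.97 lower than in spleen (adjusted p = 0.00061). Mmp9 changes in scaffolds were smaller by 2.91 than in lungs, 2.74 than in spleens and 1.81 than in primary tumors (adjusted p = 0.00033, 0.00023 and 0.0074). Mmp9 was at 289 to 534 CPM in 67NR scaffolds and 10.5 to 15.6 CPM in 67NR lungs, so the scaffold had the higher starting level.

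Some named genes outside the granulocyte lists changed differently between tissues. Mmp13 and Scara5, which were below 0 in scaffolds without passing the edgeR threshold (DESeq2 called Scara5 lower), were higher in 4T1 primary tumors (log2 fold changes 2.79 and 2.22), with interactions of -3.76 and -3.46 (adjusted p = 1.6e-06 and 1.9e-06). Adipoq fell in 4T1 lungs (-1.71, adjusted p = 0.0069), from 12.8, 17.2 and 29.9 to 5.47, 6.78 and 4.65 CPM, an interaction of 2.84 with the scaffold (adjusted p = 0.0019). Per3 was not apart in lungs (0.05) and lower in 4T1 spleens (-0.88, adjusted p = 0.0037), with interactions of 0.91 (adjusted p = 0.082) and 1.78 (adjusted p = 5.8e-05). Of 18, 17 and 18 clock genes tested in lung, spleen and tumor, 4, 8 and 7 had an interaction with the scaffold, against 4.34%, 19.2% and 23.4% of all genes. Of 11, 10 and 12 adipocyte genes it was 9, 1 and 0, so that in spleen and tumor their share was below that of all genes. Tef, higher in 4T1 scaffolds by value, fell in 4T1 primary tumors (-1.35, adjusted p = 0.0037).

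**Figure D5:**
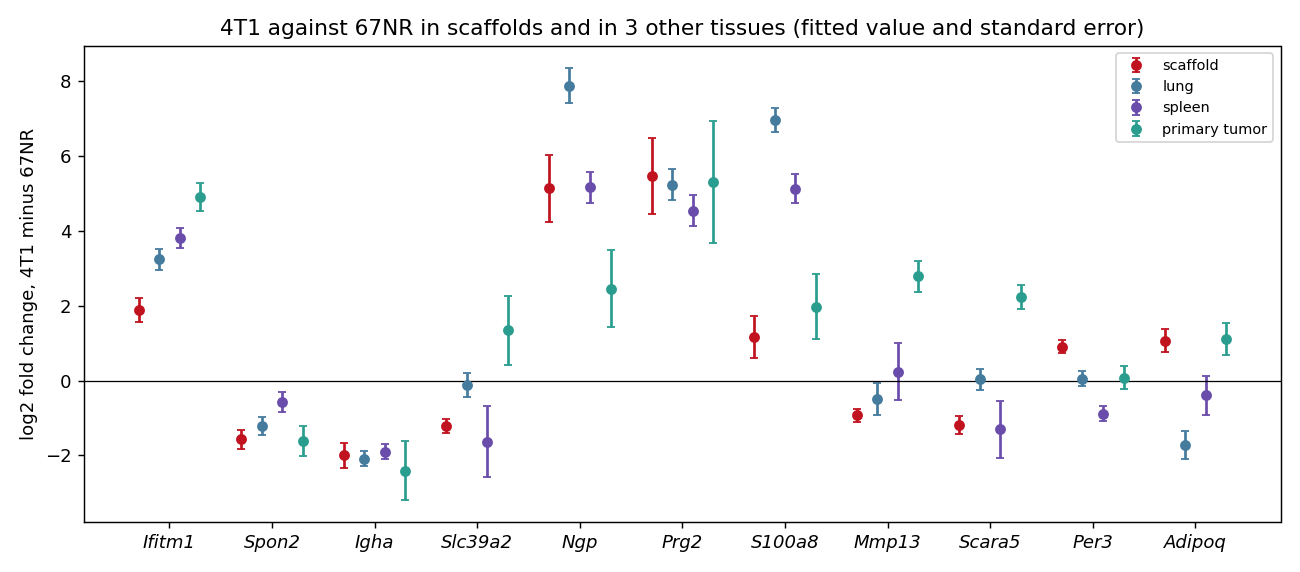
Log2 fold change, 4T1 minus 67NR, of 11 genes in scaffolds, lungs, spleens and primary tumors, points being the fitted value and bars its standard error (3 libraries per group). Ifitm1 and Igha point the same way in all 4 tissues, while Mmp13 and Scara5 are below 0 in scaffolds and above 0 in primary tumors.

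Few transcripts could be used to look for the tumor lines themselves in these scaffolds. Genes with at least 20 CPM in each tumor of a line and 0 counts in 9 libraries of healthy scaffolds, lungs and spleens numbered 1 for 4T1 (Mir763) and 3 for 67NR (Rhox5, Pnma5 and Cyp2c55). Mir763 had 1, 1 and 0 counts in 4T1 scaffolds and none in 67NR scaffolds. It also had 7.27 to 21.0 CPM in 67NR tumors, so it does not separate the lines. With a mean of 23.7 CPM in 4T1 tumors, Mir763 is also too low to show whether 4T1 transcripts were scarce. The 3 genes from 67NR tumors summed to 1, 3 and 1 counts in 67NR scaffolds and to 97, 13 and 11 counts in 4T1 scaffolds, the reverse of their level in the tumors (1124 to 1265 CPM in 67NR and 5.33 to 7.86 CPM in 4T1). Carcinoma epithelial markers had no member with p under 0.05 of 8 tested, at a summed level of 18.5 to 54.9 CPM in 67NR and 28.9 to 57.0 CPM in 4T1 scaffolds.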

How the data were processed

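RNA of scaffolds, lungs, spleens and primary tumors was made into 3' tag libraries (QuantSeq 3' mRNA FWD with unique molecular identifiers) and sequenced by the authors, who deposited raw counts per gene symbol as whole numbers. Per the submitters' processing notes, Trim Galore 0.5.0, STAR 2.6.0 and featureCounts were used. The genome build, the annotation and whether reads were collapsed by identifier are not given in the sources used here. The table held 55487 rows, of which 120 repeated a symbol and were summed. Counts at the 3' end do not resolve isoforms, and reads shared by near-identical genes could be split between them or lost.

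Groups came from the labels. edgeR 4.0.16 in R 4.3.3 (TMM, quasi-likelihood F test, Benjamini-Hochberg over all genes tested) was fitted to the 12 scaffold libraries of 4 groups, with the contrast 4T1 minus 67NR. Genes needed more than 10 counts over the 6 libraries compared. The other tissues were fitted likewise, and interactions on scaffold and tissue libraries together. DESeq2 1.42.0, the tool the study used, was an alternative. CPM were counts per 1e6 of the library total, without TMM factors, and SE is the log2 fold change divided by the root of F, which is rough for values near 0. The labels do not say which samples of different tissues came from the same mouse, and p-values measure only the spread between the samples. Intervals and floors cover counting error only.

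Named genes were those past the threshold with groups apart and a mean of at least 5 CPM (up to 15 per direction), filled to 10 per direction by unadjusted p, the members of both signatures, and up to 4 markers per cell type list by mean CPM. Other list members with an unadjusted p under 0.05, the Ifitm relatives and the foreign transcripts Rhox5, Pnlip and Sftpc were picked after their values were seen. The members, the 45 lists and the motifs were chosen with earlier results of these data known. Alternatives were DESeq2, its size factors in edgeR, other count filters, fewer groups in the fit and each replicate left out. Promoter windows came from RefSeq (GRCm38.p6), matched by symbol.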

Additional observations from a re-analysis of the deposited data

Results flagged for a closer look

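For the genes named above, the 4T1 minus 67NR log2 fold change of the scaffold was set against that of each other tissue, and the results that follow differed at an adjusted p under 0.10 by the edgeR interaction test. Each value is the scaffold log2 fold change minus that of the other tissue, so a negative value says that the change was lower in the scaffold.

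Against the lung, the neutrophil genes S100a8 (-5.73), S100a9 (-5.10) and Mmp9 (-2.91) differed most. Cap1 (-1.63), Sema3c (-1.53), Dok3 (-1.19), Scara5 (-1.15) and Gm20568 (-1.14) were also lower. Adipoq (2.84), Slc25a13 (1.34), Slc1a3 (1.16) and Per3 (0.91) were higher in the scaffold contrast.

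Against the spleen, S100a8 (-3.97), Lcn2 (-3.71), S100a9 (-3.28), Chil3 (-2.86), a chitinase-like protein of myeloid cells, and Mmp9 (-2.74) were lower. Ifitm1 (-1.94) and Spon2 (-1.01) were lower as well, with Gm20568 (-2.94), Cap1 (-2.63), Fhl1 (-1.54), Dhx9 (-1.27) and Ifi27l2a (-0.98). Clock genes were higher in the scaffold contrast, with Per3 at 1.78, Tef at 1.55 and Cry1 at 1.19. So were Gm9774 (2.46), Fam102a (2.23), Slc1a3 (1.71), Slc25a13 (1.47), Soga1 (1.12), Tbcc (0.91), Dok3 (0.79) and H2az1 (0.78).

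Against the primary tumor, the stromal genes Mmp13 (-3.76) and Scara5 (-3.46) were lower, as were Ifitm1 (-3.07), Ccl22 (-2.94), Slc39a2 (-2.62, from counts of at most 1 in each 67NR tumor, below the floor of 3 counts), Rian (-2.59), Lcn2 (-1.82), Mmp9 (-1.81), Slc1a3 (-1.51), Cap1 (-1.45), Sema3c (-1.19), Soga1 (-0.87) and Slc25a13 (-0.78). Pglyrp1 (3.53), Tef (2.23), Tbcc (1.52), Gm9774 (1.08), Dusp12 (1.00), Ifi27l2a (0.94) and Dok3 (0.83) were higher. A primary tumor consists largely of the injected line, so the tumor contrast includes differences between the lines themselves.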

How the results depend on the processing

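The 4 calls were close to the threshold, all at an adjusted p of 0.0984. DESeq2 called 48 genes, edgeR without a count filter 182 (115 higher, 67 lower), edgeR without the 4T07 scaffolds 18 (12 higher, 6 lower) and edgeR on only the 6 libraries 10 (7 higher, 3 lower). After seeing the data, a fit without 4T1 scaffold 1 and the 4T07 scaffolds was added, and it called 10 (7 higher, 3 lower). With DESeq2 size factors in edgeR the count was 0 (adjusted p of the 4 genes 0.111, with 5.92% of genes higher and 4.98% lower at an unadjusted p under 0.05). With at least 10 counts in each of the 6 libraries it was also 0 (adjusted p 0.1004, with 7.41% and 6.41%). Leaving out each replicate in turn gave 0 to 7. The cause of these shifts was not tested. The difference between scaffold and lung was found in 1726 genes without a count filter and in 391 to 1672 with a replicate left out. The mean summed level of the 4T1 tumor transcript in 4T1 scaffolds was 0.117 CPM, and it moved to 0.231 CPM with a tumor minimum of 5 CPM and 0.705 CPM with only the 3 control scaffolds at 0. For 67NR the last setting moved it from 0.277 to 0.553 CPM. At a minimum of 50 CPM no 4T1 gene was left. Of 878 fits of 64 single genes, 767 kept their side of the threshold, 77 passed it anew and 34 lost it, and none turned in direction. The 34 losses were all of the 4 called genes, and the 767 include genes called in neither fit. Of 14 alternative fits, Ifitm1 and Slc39a2 were called in 6 each, and Igha and Spon2 in 5 each. No paired analysis was possible because the labels give no number, batch or mouse that scaffolds of the 2 groups share. At these depths, genes under about 0.5 CPM in both groups could not be compared.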
